A study of Mus musculus with 12 samples.

Results

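The interleukin-6 (IL-6) family, the receptors that pair with gp130 and the transcription factor STAT3 were followed through mouse lungs with and without acute lung injury (ALI), an inflammatory failure of the barrier between air and blood. The set was chosen by gene symbol and comprised 10 of the 54532 genes in the deposited table: the cytokines Il6, Il11, Lif and Osm, the receptor chains Il6ra, Il6st, Osmr and Lifr, the transcription factor Stat3 and its inhibitor Socs3. All 10 had a row of their own. Bulk RNA sequencing had been done on whole lung tissue from 12 mouse samples, 6 labelled as controls and 6 labelled as ALI. The series design names drowning in seawater as the injury under study. Strain, age, sex, exposure and the interval before collection are not given in the labels, nor is it said whether each sample came from a separate animal, so the p-values rest on the spread among samples, which may be technical.

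Cytokines of this family share gp130, the signalling chain encoded by Il6st. IL-6 and IL-11 first bind receptors of their own, whereas leukaemia inhibitory factor (LIF) joins gp130 to the LIF receptor and oncostatin M (OSM), in the mouse, mainly joins gp130 to the OSM receptor. Janus kinases bound to these chains then phosphorylate STAT3, which enters the nucleus and switches on acute phase genes and Socs3. The SOCS3 protein binds gp130 and its kinases and shuts the signal off. In lung the pathway is known for its part in the acute phase response and in epithelial survival during injury. RNA counts measure transcripts, not phosphorylation.

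Depth ranged from 15707937 to 19706494 counts per sample, and 16185 genes passed a filter on low counts and were tested. Levels are CPM, counts scaled to a common library size. Changes are log2 fold changes, ALI against control, from edgeR's quasi-likelihood test. Their standard error (SE) was derived from that test, as the size of the change over the square root of the F statistic. A gene was called at a Benjamini-Hochberg adjusted p under 0.05. Of the genes tested, 36.6% were called. The share called higher was 18.9% and the share called lower was 17.7%. The lung label matched high levels of Sftpc, the surfactant protein of alveolar type 2 cells, at 13950 ± 2206 CPM in controls and 11630 ± 1639 CPM in ALI (SD, n = 6 each). In control 5 and ALI 2 the summed level of 8 adipose tissue markers stood at 4787 and 601 CPM, against group medians of 10.7 in controls and 7.72 in ALI. Among the 10 genes, calls that change without these samples are given both ways. Over all genes, the counts of control 5 also stood far from those of every other control (chi-square over degrees of freedom, 213 to 239). Pairs among the other controls lay at 6.91 to 26.2.

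Of the 10 genes, all of which passed the filter on low counts, 5 were called higher in ALI (Il6, Osm, Socs3, Lif and Stat3), 1 was called lower (Lifr), and Il11, Il6ra, Il6st and Osmr were not called. The shares called higher and lower over all genes tested were 18.9% and 17.7%. The median log2 change over the 10 was 0.20, against -0.06 over all genes tested. Every ALI sample lay above every control for Lif, Stat3 and Socs3, which 13.1% of all tested genes did, and below every control for Lifr, which 8.25% did. Ligand, inhibitor and transcription factor transcripts were thus among the higher calls, and a receptor chain was the lower call. In bulk tissue, fewer cells of a type and less RNA per cell cannot be told apart.

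**Figure D1:**
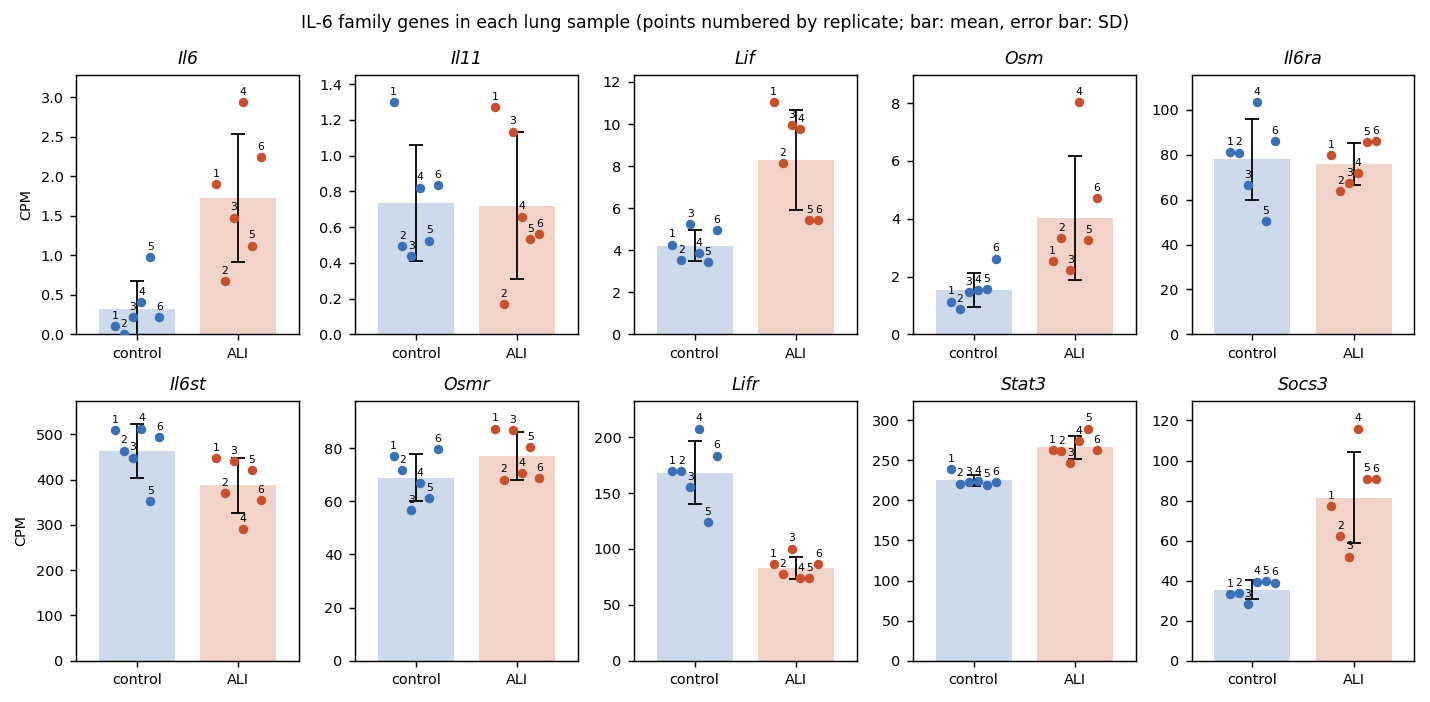
Scaled counts (CPM, vertical axis from 0) of the 10 genes in 6 control and 6 ALI lung samples. Points are samples numbered by replicate, bars are group means and error bars are SD. Lif, Stat3 and Socs3 were higher in all 6 ALI samples than in any control, Lifr was lower in all 6, and the groups overlapped for the other genes.

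Il6 encodes the founding cytokine of the family, a product of macrophages, fibroblasts and endothelium that drives the acute phase response. The gene (ENSMUSG00000025746) lies on chromosome 5, 30013114 to 30019981, plus strand, on GRCm38. It was nearly silent in controls, with 0 CPM in the lowest sample, a median of 0.221 and 0.975 in the highest, which was control 5. In ALI the lowest sample held 0.678 CPM, the median was 1.69 and the highest, ALI 4, held 2.94. Thus 5 of 6 ALI samples exceeded every control, and ALI 2 was the exception. The log2 change was 2.46 ± 0.58 (SE, edgeR adjusted p = 0.00383), or 5.52-fold. Depth limits this value, since the group totals were 30 counts in controls, 13 of them in control 5, and 183 counts in ALI. Without control 5 the log2 change was 3.11 (edgeR adjusted p = 0.000154), and without control 5 and ALI 2 it was 3.27 (edgeR adjusted p = 5.98e-05). Over 21 alternatives the edgeR, DESeq2 or limma adjusted p ranged from 5.98e-05 to 0.0108. At least 10 counts were present in all 6 ALI samples and in 1 control, so Il6 passed the filter through the group in which it was high.

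The 250 bases before the RefSeq start of Il6 are shown because Il6 had the largest log2 change of the 10 genes and this stretch holds the motifs of factors known to drive it. They lie on GRCm38.p6 at chr5:30012864-30013113, plus strand, and capitals mark, from left to right, matches to an AP-1 motif (TGANTCA), a C/EBP motif (TTGNNCAA) and an NF-kB motif (GGGNNTTTC).
Il6 promoter: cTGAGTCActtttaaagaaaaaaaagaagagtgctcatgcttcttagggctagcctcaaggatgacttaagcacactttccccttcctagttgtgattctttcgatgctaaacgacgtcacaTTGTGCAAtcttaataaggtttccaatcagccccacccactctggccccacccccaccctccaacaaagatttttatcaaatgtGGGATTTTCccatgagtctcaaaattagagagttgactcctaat
The matches begin 249, 128 and 44 bases before the start and do not overlap. Searched on both strands of 32851 RefSeq windows of the same length, the NF-kB motif occurred in 3.72%, the C/EBP motif in 5.65% and the AP-1 motif in 6.75%. Of the 11 windows that RefSeq gives for 9 of the genes, Il6 alone held the NF-kB and the C/EBP motif, while the AP-1 motif was also present in windows of Il11 and Lif.

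Osm encodes oncostatin M, which neutrophils and macrophages release and which acts on stromal and epithelial cells. The gene (ENSMUSG00000058755, chromosome 11, 4236420 to 4241026, plus strand) held 0.867, 1.5 and 2.62 CPM in the lowest, median and highest control. The ALI samples ranged from 2.22 through a median of 3.29 to 8.03 CPM, the last in ALI 4. In 4 of 6 ALI samples Osm exceeded every control, and ALI 1 and ALI 3 fell within the range of control 6. It rose by 1.38 ± 0.34 log2 units (SE, edgeR adjusted p = 0.00549), and by 1.06 when ALI 4 was left out (edgeR adjusted p = 0.0127, with 0.000382 to 0.0141 over 22 alternatives).

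Lif, a neighbour of Osm on the same strand (ENSMUSG00000034394, chromosome 11, 4257557 to 4272514), encodes the cytokine that maintains mouse embryonic stem cells and protects lung epithelium in infection. Control samples held 3.45 to 5.25 CPM with a median of 4.07, and ALI samples held 5.44 to 11 with a median of 8.95. The groups did not overlap. Replicates ALI 5 and ALI 6 were the lowest of the injured lungs and stood close to the highest control. The log2 change was 0.97 ± 0.20 (SE, edgeR adjusted p = 0.00175), or 1.96-fold.

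Il11, which encodes a cytokine of fibroblasts and epithelium linked to fibrosis, was scarce in both groups. The gene (ENSMUSG00000004371, chromosome 7, 4772373 to 4782859, minus strand) ranged from 0.437 to 1.30 CPM in controls and from 0.169 to 1.27 CPM in ALI, with 76 and 78 counts per group. The log2 difference was -0.03 ± 0.42 (SE, edgeR adjusted p = 0.959), and its sign depended on which sample was left out. A difference in Il11 was not detectable at this depth.

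The summed level of 11 neutrophil markers ranged from 90.1 to 145 CPM in controls and from 220 to 468 CPM in ALI. Of the 10 tested, 9 were called higher and none lower, against 18.9% and 17.7% of all genes. The higher calls included Mmp8 (2.40), a neutrophil collagenase, and Ltf (3.54), the iron-binding lactoferrin. For 10 monocyte and macrophage markers the ranges were 261 to 370 CPM and 1107 to 1731 CPM, with 9 called higher, among them the chemokine receptor gene Ccr2 (1.70) and the complement gene C1qb (2.98). The lowest monocyte and macrophage sum of the controls was that of control 5, against a control median of 339 CPM. No marker of either list was without counts. Both sums were higher in every ALI sample than in any control. The part of these cells in the ligand levels was not tested.

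Over all genes tested 18.9% were called higher and 17.7% lower. Of the 4 receptor chains, 1 was called, in the lower direction. It was Lifr, the chain that binds LIF (ENSMUSG00000054263, chromosome 15, 7090614 to 7197489, plus strand). Lifr had 124, 170 and 208 CPM in the lowest, median and highest control. ALI samples held 73.6 to 100 CPM with a median of 81.8, so the highest injured lung stayed below the lowest control, which was control 5. It fell by 1.02 ± 0.12 log2 units (SE, edgeR adjusted p = 1.1e-05), to 0.493 of the control level.

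Beside Lifr, the 8 capillary endothelial markers were all called lower, among them Plvap (-1.47), a protein of endothelial vesicle diaphragms, and Gpihbp1 (-1.24), the anchor of lipoprotein lipase on capillaries. Their summed level was 3906 to 5635 CPM in controls and 2194 to 3069 CPM in ALI. For all lists named here, the shares over all genes tested were 17.7% called lower and 18.9% called higher. Of 8 lung epithelial markers, 5 were called lower, among them Scgb1a1 (-2.21), the club cell secretoglobin, and Hopx (-0.90), an alveolar type 1 cell gene, and 1 was called higher. Their sum was 27960 to 44460 CPM in controls and 15450 to 21320 CPM in ALI. The 8 fibroblast markers were split, with Col1a1 (1.55) and Col1a2 (1.29) called higher and 4 called lower, and sums of 1992 to 3633 and 3515 to 4538 CPM. Control 5 held the highest epithelial sum of the controls, against a control median of 30460 CPM. It also held the lowest endothelial and fibroblast sums, against control medians of 5078 and 3129 CPM. All markers of these 3 lists had counts. The part of each cell type in the Lifr level was not tested.

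Osmr, the chain for OSM and a neighbour of Lifr on chromosome 15 (ENSMUSG00000022146, 6813577 to 6874969, minus strand), was not called. Controls held 56.8 to 79.7 CPM and ALI samples 68.2 to 87.4 CPM, and 3 ALI samples exceeded every control. The log2 difference was 0.16 ± 0.10 (SE, edgeR adjusted p = 0.239).

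Il6st, the gp130 gene (ENSMUSG00000021756, chromosome 13, 112464070 to 112510086, plus strand), was the most abundant of the 10. Its level was 353, 479 and 513 CPM in the lowest, median and highest control and 292, 396 and 448 CPM in ALI. The lowest control was control 5, and ALI 4 was the only sample below it. The log2 difference of -0.26 ± 0.12 was not called (SE, edgeR adjusted p = 0.112). Without control 5 it was called, at -0.33 (edgeR adjusted p = 0.016), and without control 5 and ALI 2 at -0.31 (edgeR adjusted p = 0.0321), and adjusted p ranged from 0.00314 to 0.222 over 22 alternatives with edgeR, DESeq2 or limma.

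Il6ra, the chain that binds IL-6 itself (ENSMUSG00000027947, chromosome 3, 89864059 to 89913196, minus strand), showed no detectable difference. Controls ranged from 50.4 CPM in control 5 to 103 CPM in control 4, and ALI samples from 63.9 to 86.0 CPM. The log2 difference was -0.04 ± 0.14 (SE, edgeR adjusted p = 0.847). Of its exon bases 2.8% are shared with a gene on the opposite strand, and the sources used here do not say whether counting used strand.

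Stat3 (ENSMUSG00000004040, chromosome 11, 100885098 to 100939540, minus strand) showed a small difference with little spread. Control samples held 220 to 239 CPM with a median of 223, and ALI samples 247 to 289 CPM with a median of 263. The groups did not overlap, and control 1 stood above the other 5 controls. The rise was 0.24 ± 0.06 log2 units (SE, edgeR adjusted p = 0.00765), or 1.18-fold. It was no longer called when genes were not filtered on low counts (0.24, edgeR adjusted p = 0.0617, the highest of 22 alternatives, whose lowest was 5.15e-05). With the replicate number as a block it was not called either (0.24, edgeR adjusted p = 0.0558). Of the Stat3 exon bases, 0.756% are shared with Stat5a on the opposite strand.

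Socs3, the feedback inhibitor (ENSMUSG00000053113, chromosome 11, 117966079 to 117970047, minus strand), had 28.3, 36.3 and 39.9 CPM in the lowest, median and highest control. In ALI the lowest sample held 52.1 CPM (ALI 3), the median was 84.0 and the highest was 116 (ALI 4). All injured lungs were above all controls, and the spread among them was wider, with an SD of 22.9 CPM against 4.67. The rise was 1.20 ± 0.17 log2 units (SE, edgeR adjusted p = 6.9e-05), or 2.29-fold. ALI 4 was thus the highest sample for Il6, Osm and Socs3 and the lowest for Il6st, a reading made after the values were seen.

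A stretch of the Socs3 promoter is shown because it carries the only match, among the windows of these genes, to the STAT motif TTCNNNGAA, which reads the same on both strands. The 165 bases lie on GRCm38.p6 at chr11:117969452-117969616, minus strand, before the RefSeq start. They are the far part of the 250-base window. The bases nearest the start, up to the furthest that GENCODE M21 annotates as Socs3 exon, were left out. The printed bases therefore overlap no exon of Socs3 by choice. By GENCODE M21 they lie inside the span of the gene, in an intron of a transcript that starts further upstream. Capitals mark the match.
Socs3 promoter: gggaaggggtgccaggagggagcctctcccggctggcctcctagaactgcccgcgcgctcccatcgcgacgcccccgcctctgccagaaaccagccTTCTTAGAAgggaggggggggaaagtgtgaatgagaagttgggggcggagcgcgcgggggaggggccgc
The match spans bases 154 to 146 before the RefSeq start. The motif occurred in 7.02% of all RefSeq windows of 250 bases, so a match in 1 of 11 windows is close to the share in promoters at large.

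Divided by the deposited gene length, levels can be set side by side between genes. Apart from Il11, this length equals the union of all annotated exons, which can exceed the length of any single transcript. The order of genes at similar levels therefore depends on it. In controls the order per kilobase ran from Il6st (41.8 ± 5.39 CPM per kilobase) through Stat3 (23.6 ± 0.727), Lifr (15.6 ± 2.60), Socs3 (12.3 ± 1.62), Il6ra (9.02 ± 2.08) and Osmr (5.69 ± 0.738) to the ligands (SD, n = 6). The ligands were all below 1, with Lif at 0.971 ± 0.172, Osm at 0.675 ± 0.263, Il11 at 0.366 ± 0.161 and Il6 at 0.133 ± 0.143 CPM per kilobase. Sample ranges of neighbours in this order overlapped except between Il6st and Stat3, Stat3 and Lifr, and Osmr and Lif. In ALI, Socs3 (28.2 ± 7.91) stood level with Stat3 (27.9 ± 1.5) and within the range of Il6st (34.9 ± 5.45). Lifr (7.70 ± 0.949) then lay among Il6ra (8.77 ± 1.09) and Osmr (6.36 ± 0.738), with overlapping ranges. Il6 (0.712 ± 0.334) passed above Il11 (0.358 ± 0.204), below Lif (1.91 ± 0.551) and Osm (1.77 ± 0.945), again with overlap. The receptors and Stat3 therefore exceeded every ligand in both groups, with no overlap between Osmr and Lif.

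**Figure D2:**
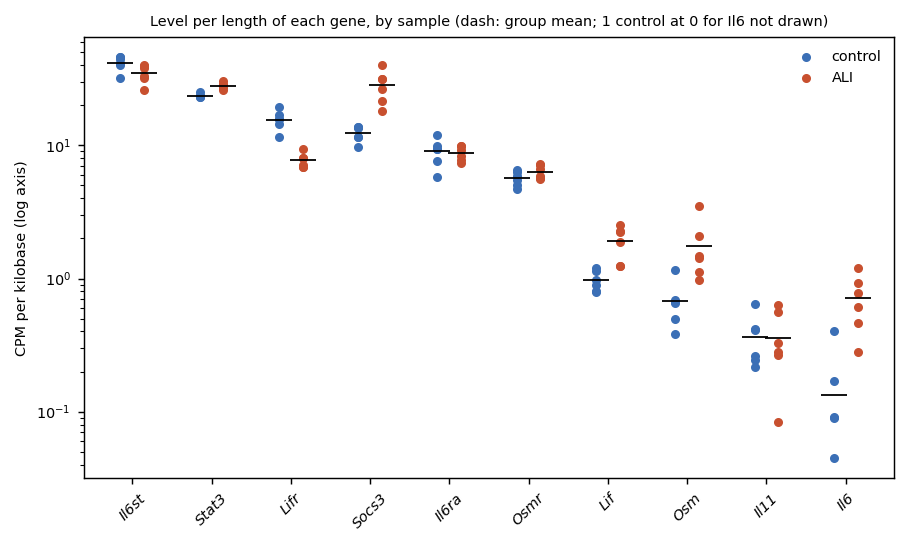
CPM per kilobase (log axis) of each gene, in the order of the control means. Points are the 6 control and 6 ALI samples, dashes are group means, and control 2, at 0 for Il6, is not drawn. Socs3 moved up to the level of Stat3 in ALI, at 28.2 and 27.9, while Lifr moved down to the level of Il6ra and Osmr.

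Ratios within a sample do not depend on how libraries are scaled. The ratio of Osmr to Lifr per length was 0.287 to 0.440 in controls and 0.709 to 0.972 in ALI, without overlap, a shift of 1.17 in mean log2 ratio (-1.45 ± 0.22 to -0.28 ± 0.17, SD, n = 6). Per deposited length, Lifr thus exceeded Osmr in all 12 samples, by a smaller margin in every injured lung. In raw counts Osmr exceeded Lifr in ALI 1 (1513 against 1493) and ALI 5 (1359 against 1244). The ratio of Socs3 to Stat3 was 0.417 to 0.599 in controls and 0.695 to 1.39 in ALI, again without overlap, a shift of 0.92 in mean log2 ratio. Per deposited length, Socs3 exceeded Stat3 in ALI 4, ALI 5 and ALI 6 and in no control, whereas in raw counts Stat3 was higher in every sample. The ratio of Il6st to Il6ra overlapped between groups, at 3.87 to 5.46 and 3.16 to 5.10. These ratios are descriptions and were not tested.

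**Figure D3:**
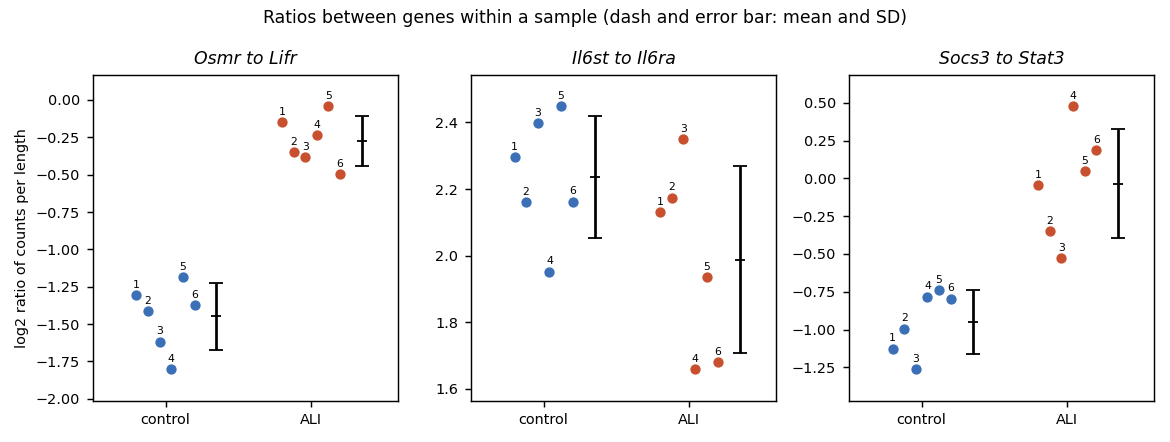
Log2 ratios of counts per length within each sample, for Osmr to Lifr, Il6st to Il6ra and Socs3 to Stat3. Points are samples numbered by replicate, and dashes with error bars are the mean and SD of 6 samples. The first and last ratio part the groups, with mean shifts of 1.17 and 0.92, and the middle ratio overlaps.

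Of 13 other ligands and receptors of the family, 7 were tested, 1 was called higher and 2 lower, with a median log2 change of -0.17. Over all genes tested 18.9% were called higher and 17.7% lower, so these counts are near the background. Ebi3, the subunit of IL-27 and IL-35, rose from 1.71 ± 0.345 to 10.9 ± 2.61 CPM, by 2.67 log2 units (edgeR adjusted p = 2.16e-07). Its IL-27 partner Il27 was too scarce to test, with 30 counts over the controls and 69 over the ALI samples. Clcf1, a cytokine that signals through gp130 and the LIF receptor, fell from 14.4 ± 1.69 to 7.15 ± 1.36 CPM (log2 change -1.01, edgeR adjusted p = 5.69e-05). Cntfr, the receptor that CLCF1 binds, fell from 6.78 ± 4.2 to 1.34 ± 0.914 CPM (log2 change -2.32, edgeR adjusted p = 0.00106). Control 5 held 15.29 CPM of Cntfr, against a control median of 5.145. With single samples left out the Cntfr change ranged from -2.738 to -1.915. In each of these 3 genes the groups did not overlap. Il11ra1, the receptor for IL-11, had 59.5 ± 9.05 and 61.7 ± 5.53 CPM and was not called, and its counts can be shared with the near-identical Il11ra2.

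Of 9 kinases and STAT factors tested beside STAT3, 4 were called higher and none lower, against 18.9% and 17.7% of all genes, with a median of 0.30. Jak2, a kinase bound to gp130, rose from 88.0 ± 8.90 to 142 ± 23.6 CPM (log2 change 0.69), Tyk2 by 0.54, Stat5a by 0.43 and Jak3, the kinase of lymphocyte cytokine receptors, by 0.39. Jak1, the main kinase of gp130, held 276 ± 29.2 CPM in controls and 283 ± 28.6 CPM in ALI (0.04 ± 0.09, edgeR adjusted p = 0.797). Stat5b, at -0.17, was called lower only without control 5, alone or with ALI 2, and by limma-voom.

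Of 15 brakes on the pathway tested beside Socs3, 4 were called higher and 3 lower, with a median of 0.05. These counts are near the 18.9% and 17.7% of all genes. Ptpn6, the phosphatase SHP-1 of blood cells, rose from 52.7 ± 6.98 to 116 ± 23.9 CPM (log2 change 1.13, edgeR adjusted p = 2.34e-05). Socs1, which inhibits the kinases directly, rose from 7.09 ± 1.21 to 15 ± 5.17 CPM (1.08), and Ptpn1, which dephosphorylates Janus kinases, rose by 0.64. Socs2, a brake on growth hormone signalling, fell from 110 ± 6.61 to 83.3 ± 9.41 CPM (-0.40). Named after their values were seen, Ptpn2 (0.57) was the remaining higher call, and Socs5 (-0.34) and Pias3 (-0.32), the inhibitor of STAT3 binding to DNA, were the remaining lower calls. Socs5 was not called with library size alone (edgeR adjusted p = 0.0571, the highest of 22 alternatives, whose lowest was 0.000248).

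Genes of the proteases that release the IL-6 receptor from the cell surface, and of their partner proteins, were also measured, since the shed receptor lets IL-6 act on cells that carry gp130 alone. Of 5 genes tested, 3 were called higher and 1 lower, with a median of 0.52, against 18.9% and 17.7% of all genes. None of these 4 overlapped between groups, where 13.1% of all genes lay wholly higher and 8.25% wholly lower. Adam17, the main sheddase after stimulation, rose from 64.0 ± 11.4 to 185 ± 31.6 CPM (log2 change 1.53, edgeR adjusted p = 1.56e-06), and Adam10 rose by 0.57. Rhbdf2, which carries ADAM17 to the surface, rose by 0.52, while its relative Rhbdf1 fell, with a log2 change of -0.50.

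Among 27 genes listed as textbook targets of STAT3, 24 were tested, 15 were called higher and 2 lower, against 18.9% and 17.7% of all genes, with a median of 0.93 against -0.06. The 4 with the smallest p were Lcn2, which binds bacterial siderophores (3.74), Saa3, an acute phase protein (7.56, with reads open to sharing with paralogs), Steap4, a metalloreductase (2.66, from 26.9 ± 10.9 to 169 ± 21 CPM), and Il1rn, the IL-1 receptor antagonist (3.11, from 9.38 ± 2.25 to 81.2 ± 31.6 CPM). For Steap4, control 5 held 49.0 CPM against a control median of 22.4. With single samples left out the Steap4 change ranged from 2.60 to 2.91. The lower calls, named after their values were seen, were Vegfa, the endothelial growth factor (-1.30, from 929 ± 168 to 378 ± 38.6 CPM), and Bcl2l1, a survival gene (-0.65). For Bcl2l1, controls 2 and 4 held 225 and 242 CPM against a control median of 130, and ALI samples held 93.1 to 123 CPM. With single samples left out the Bcl2l1 change ranged from -0.72 to -0.50. The 7 tested but not called were Cebpd, Junb, Ccnd1, Hp, Il4ra, Reg3g and Tnfaip6. Several genes of the list answer to other factors as well, so it does not measure STAT3 alone. The list was chosen with earlier results of these data known, so its share of calls is a description. Among 9 regulators of Il6 transcription and mRNA decay, 4 were called higher and none lower, against 18.9% and 17.7% of all genes, with a median of 0.22. Zc3h12a, the nuclease Regnase-1 that degrades Il6 mRNA, rose from 11.9 ± 1.04 to 41.1 ± 13.3 CPM (1.78). Nfkbiz, a cofactor for Il6 transcription, rose by 1.11, the decay factor gene Zfp36l2 by 0.66, and Arid5a, which stabilises Il6 mRNA, by 0.38.

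**Figure D4:**
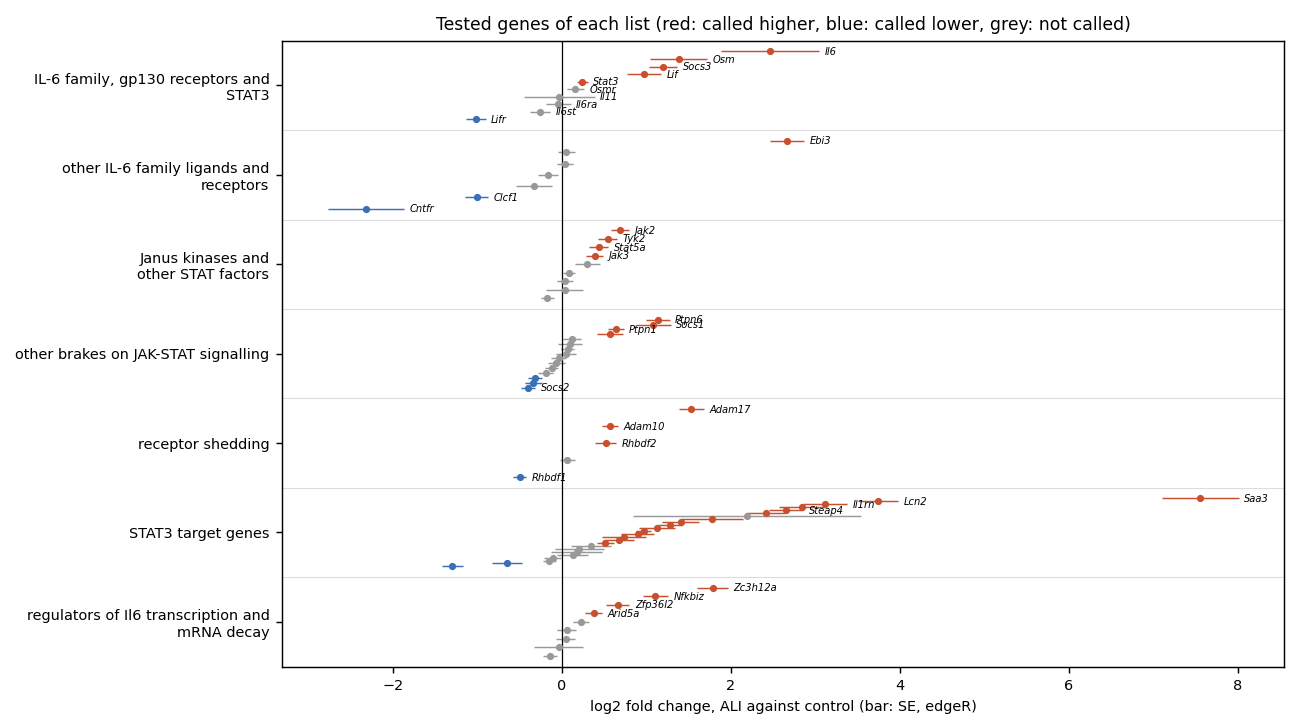
Log2 fold change of each tested gene, ALI against control (horizontal axis, with SE from edgeR), grouped by list. Red points were called higher, blue lower and grey were not called, and italic names mark the genes chosen for naming. The target list is shifted to the right, with 15 of 24 called higher, while the ligand and receptor lists fall on both sides of 0. The lists were chosen with earlier results of these data known.

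Patterns across samples were compared within groups, likeness being the smaller of the Pearson correlations of log2 CPM over the 6 controls and over the 6 ALI samples, with the best 2 of 15246 other genes taken for each. With so few samples and so many genes, high values are found for any gene, and these are descriptions. Socs3 was most like Aoah (0.924), an enzyme that inactivates lipopolysaccharide, and Zfp523 (0.911). Stat3 was most like Ap5b1 (0.893) and Lrp8 (0.891). Likeness for Il6 was highest with Gm14964 (0.919) and Tmem86b (0.893). For Osm it was highest with Bcl2a1a (0.948), whose reads can be shared with paralogs, and Gspt2 (0.911). Lif was most like Hs3st1 (0.856) and Ahr (0.828), and Il11 most like Odf2 (0.941) and Nek10 (0.927). Among receptors, Il6st was most like Zbtb4 (0.979) and Tjp1 (0.978), and Lifr most like Limch1 (0.967) and Fmo2 (0.960). Il6ra was most like Tmem8b (0.935) and Akap11 (0.926), and Osmr most like Agbl5 (0.947) and Zfp397 (0.934). Without control 5 and ALI 2 the 20 values ranged from 0.757 to 0.949.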

How the data were processed

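The authors deposited 1 table of raw counts per gene for 12 lung samples. Per the labels' protocols RNA was extracted with TRIzol and sequenced on the NovaSeq platform, and fastp, HISAT2, featureCounts and GRCm38 (mm10) are named in the submitters' processing notes, without settings. Strand use and the handling of shared reads are not given in the sources used here. Gene length in bases, an other value used for levels per kilobase, is as deposited. Deposited start positions differed from GRCm38 for all 10 genes, so coordinates are from GENCODE M21. Promoters are RefSeq windows on GRCm38.p6.

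Columns were matched to samples by title and grouped by treatment label. The table held 0 unmapped columns and 0 lines without a gene ID. Counts of all 30 within-group pairs differed beyond counting noise (chi-square over degrees of freedom, 6.91 to 239). The pairs that held control 5 lay at 213 to 239, and all other pairs at 6.91 to 46.4. The filter was filterByExpr in R 4.3.3, and libraries were scaled by TMM and tested with edgeR 4.0.16 (robust quasi-likelihood F test, no covariate, Benjamini-Hochberg over 16185 genes). The TMM factor of control 5 was 0.854, against 1.00 to 1.05 in the other controls. Log2 CPM used a prior count of 2. The script was tested on simulated counts. Alternatives were DESeq2 1.42.0, limma-voom 3.58.1, other scalings and filters, a replicate block, and samples left out.

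The 10 genes, the lists and the tests were chosen with earlier results of these data known. Named genes were the 10, up to 4 called genes of smallest p per pathway list, 2 per marker list, and the 2 most like genes for each of the 10. Marker lists covered neutrophils, monocytes and macrophages, fibroblasts, capillary endothelium, lung epithelium, mesothelium, T cells, adipose tissue and striated muscle. A gene left out of the list of kinases and STAT factors is not reported here.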

Additional observations from a re-analysis of the deposited data

Results flagged for a closer look

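Among 26 groups of 6 samples looked at (10 genes and 3 ratios in each condition), 1 held a sample far from the rest. Stat3 in control 1 stood at 239 CPM against 224 in the next control, a gap of 0.781 of the range of the group, above the critical value of Dixon's test at the 95% level for 6 samples. Chance alone sets about 1 group in 20 apart in this way.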

How the results depend on the processing

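Each gene was refitted under up to 22 alternatives. The calls of Lif, Osm, Lifr and Socs3 held in all 22 and that of Il6 in the 21 that could test it, since Il6 and Il11 had too few counts for the filter of at least 1 CPM in 6 samples. Stat3 lost its call without a filter (adjusted p = 0.0617) and with the replicate number as a block (replicate block, log2 change 0.24, edgeR adjusted p = 0.0558). Il6st was called lower by limma-voom (-0.37, limma adjusted p = 0.00314). The number of the 10 genes called lower was thus 2, in place of 1, by limma-voom and without control 5 and ALI 2, and 1 to 2 with single samples left out. The lower calls among kinases and STAT factors numbered 1, in place of 0, by limma-voom and without control 5 and ALI 2, and 0 to 1 with single samples left out, the gene being Stat5b. The sign of uncalled Il11 turned without control 5 and ALI 2 (0.10), and with single samples left out Il11 ranged from -0.27 to 0.21 and Il6ra from -0.14 to 0.054. Cidea, an adipose marker, was at 0.37 by limma-voom, at 0.027 without control 5 and ALI 2, and from -7.60 to 0.87 with single samples left out. The cause was not tested. Of 435 values that counts and ratios took under alternatives, 429 stayed within 1.5 times the reported count or within 1 SD.

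The labels do not say whether shared replicate numbers pair the samples, and the correlations given next cannot settle it. Deviations of same-numbered samples from their group means correlated at -0.27 to 0.27, over 0.1 in 1 of 6 pairs, and 1 of 6 ALI samples correlated best with the control of its number. With the replicate block 4822 genes were called, against 5922 without it and 5169 to 7223 with single samples left out. Depth limits Il6 and Il11, with 30 and 76 counts over the controls.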

Other observations

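Lists of other cells and tissues gave further values, to be read beside the 18.9% of all genes called higher and 17.7% called lower. The 5 T cell markers had no call in either direction by edgeR, with sums of 28.5 to 41.7 CPM in controls and 24.7 to 39.6 CPM in ALI, and 1 of them, Cd8a, had an unadjusted p under 0.05 (log2 change -0.41, edgeR adjusted p = 0.0931). Of 5 mesothelial markers Krt19 was called lower (-0.26), with sums of 247 to 551 and 247 to 501 CPM. The Krt19 call held in 16 of 22 alternatives and was lost with library size alone, without a filter, with the replicate block and without control 3, ALI 3 or ALI 5 (adjusted p from 0.00677 to 0.106 over all 22 with edgeR, DESeq2 or limma). Of 6 striated muscle markers 5 were tested and Actc1, a cardiac actin, was called lower (-1.06), with sums of 85.1 to 202 and 56.9 to 307 CPM. Of 8 adipose markers 4 were tested and Cidea was called lower (-6.76), a value set by control 5.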
